A study of Rattus norvegicus with 14 samples.

Results

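Khk, Pc, Pck1, Pklr and Fbp1 encode 5 liver enzymes of fructose use, glycolysis and gluconeogenesis. They are 5 of the 2488 genes with a row used here, found by their symbols in the platform annotation, which gave 6 of the 4502 probe sets on the array: 1 each for Khk (M86235_at), Pck1 (K03243mRNA_s_at), Pklr (X05684_at) and Fbp1 (M86240_at), and 2 for Pc (U32314_at and U32314_g_at). A probe set is a group of short probes for 1 transcript, and the suffixes of the Pck1 probe set and of the second Pc probe set mark probes that other transcripts can share. The 14 Affymetrix arrays held biotin-labelled liver RNA (left lateral lobe) of rats of strains named Kyoto and Wistar in the labels, from a commercial breeder. The Kyoto groups, 2 arrays each, were at days 1, 3 and 14 of chow with 1% orotic acid, a pyrimidine precursor whose feeding gives rats a reversible fatty liver. The Wistar groups were 3 controls on standard chow, 2 arrays at day 3 and 3 arrays at day 14 of the same orotic acid chow. Kyoto controls and Wistar rats at day 1 were not analysed here, so each Kyoto comparison below lies between days of feeding. Age and sex are not in the labels, nor whether each array was 1 animal, so p-values measure only the spread between these samples.

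Liver takes up fructose and traps it with ketohexokinase (Khk), and the products join glycolysis below its main control steps. Glycolysis ends with pyruvate kinase (Pklr is the liver and red cell gene), which makes pyruvate. Gluconeogenesis runs the other way: pyruvate carboxylase (Pc) makes oxaloacetate in mitochondria, phosphoenolpyruvate carboxykinase (Pck1) turns it into phosphoenolpyruvate, and fructose bisphosphatase (Fbp1) removes a phosphate near the end. In rodent liver, fasting and glucagon raise Pck1 and insulin lowers it, while sugar feeding raises Pklr through the factor ChREBP (Mlxipl).

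The promoters of Pck1 and Pklr are shown because they are the textbook hormone-responsive and sugar-responsive promoters of this pathway. RefSeq windows on build GRCr8, from 250 bases before to 50 bases after the start of the gene, were matched for 4 of the 5 genes, all but Pc. The sequences read 5′ to 3′, Pck1 from chr3:182348322-182348621 (plus strand) and Pklr from chr2:176841014-176841313 (plus strand). Capitals mark matches to the cAMP response element TTACGTCA and to the carbohydrate response motif CACGGG, which reads CCCGTG on the other strand.
Pck1: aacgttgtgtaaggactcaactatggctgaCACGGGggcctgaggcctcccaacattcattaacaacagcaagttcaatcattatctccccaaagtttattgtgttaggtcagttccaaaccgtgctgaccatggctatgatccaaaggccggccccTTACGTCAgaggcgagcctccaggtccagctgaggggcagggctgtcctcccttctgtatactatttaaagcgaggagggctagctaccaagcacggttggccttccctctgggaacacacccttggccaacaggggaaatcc
Pklr: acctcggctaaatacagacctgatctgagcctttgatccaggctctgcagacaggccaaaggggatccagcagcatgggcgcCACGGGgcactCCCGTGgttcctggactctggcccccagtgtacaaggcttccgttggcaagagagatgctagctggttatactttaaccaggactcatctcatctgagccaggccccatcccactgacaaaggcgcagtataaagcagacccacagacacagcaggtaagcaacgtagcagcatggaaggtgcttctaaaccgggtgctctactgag
The Pck1 window holds TTACGTCA from 93 bases before the start and 1 CACGGG from 220 bases before it. The Pklr window holds CACGGG from 168 bases before the start and its reverse from 157 bases before it. Of 33469 promoter windows in the table, 0.807% hold TTACGTCA and 9.63% hold CACGGG on either strand. The other motifs searched on both strands were TGACGTCA (1.83% of windows), its shorter form TGACG (21.2%), which in Pck1 overlaps TTACGTCA, and the E-box CACGTG (6.42%). The Khk and Fbp1 windows held none of the 5 motifs. A match describes letters only.

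Signals were put on a common scale by quantile normalization and are given as log2 values, with a floor at 6.85, and each difference is the first group named minus the second. After 1 probe set was taken per gene and the dimmer features were left out, 1909 features were tested in 8 comparisons with limma and Benjamini-Hochberg adjustment. An adjusted p under 0.05 was reached by 62 features between the strains (3.25%), by 1 between Kyoto day 14 and day 1 (0.0524%) and by 0 (0%) in each of the other comparisons. Hepatocyte markers were bright on every array (8 of 9 had a row, none at the floor). The array labelled Wistar control 2 stood apart on 2 genes that separate the strains. They were chosen because earlier results had set this array apart on them. Ces2e (a carboxylesterase) and Mst1 (macrophage stimulating protein) had log2 signals of 6.85 and 7.33 there. The other Wistar controls had 10.09 and 10.76 for Ces2e and 11.10 and 11.07 for Mst1, while Kyoto arrays had 6.85 throughout for Ces2e and 6.85 to 8.10 for Mst1. The array labelled Wistar control 2 correlated most with Kyoto day 3 replicate 2 (r = 0.960), while every other Wistar array was nearest to a Wistar array. The array least like the rest was Kyoto day 1 replicate 1, with a median correlation of 0.895. A lot batch of 1 was given for 11 arrays and none for the third Wistar control, the second Wistar array at day 3 and the third at day 14. What the lot batch refers to is not stated.

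None of the 4 genes tested passed the threshold in any comparison, and Pklr fell just under the filter on dim features (mean log2 signal 7.53, against 7.55 for the dimmest feature tested). At an unadjusted p under 0.05, Khk and Pc were lower at Wistar day 3 than in controls, Pc was also lower at Wistar day 14 than in controls and at Kyoto days 3 and 14 than at day 1, and Khk was higher at Wistar day 14 than at day 3. Of these Pc comparisons, the second Pc probe set had an unadjusted p under 0.05 only at Kyoto day 3 against day 1. Pck1 and Fbp1 had no unadjusted p under 0.05 in any comparison.

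**Figure D1:**
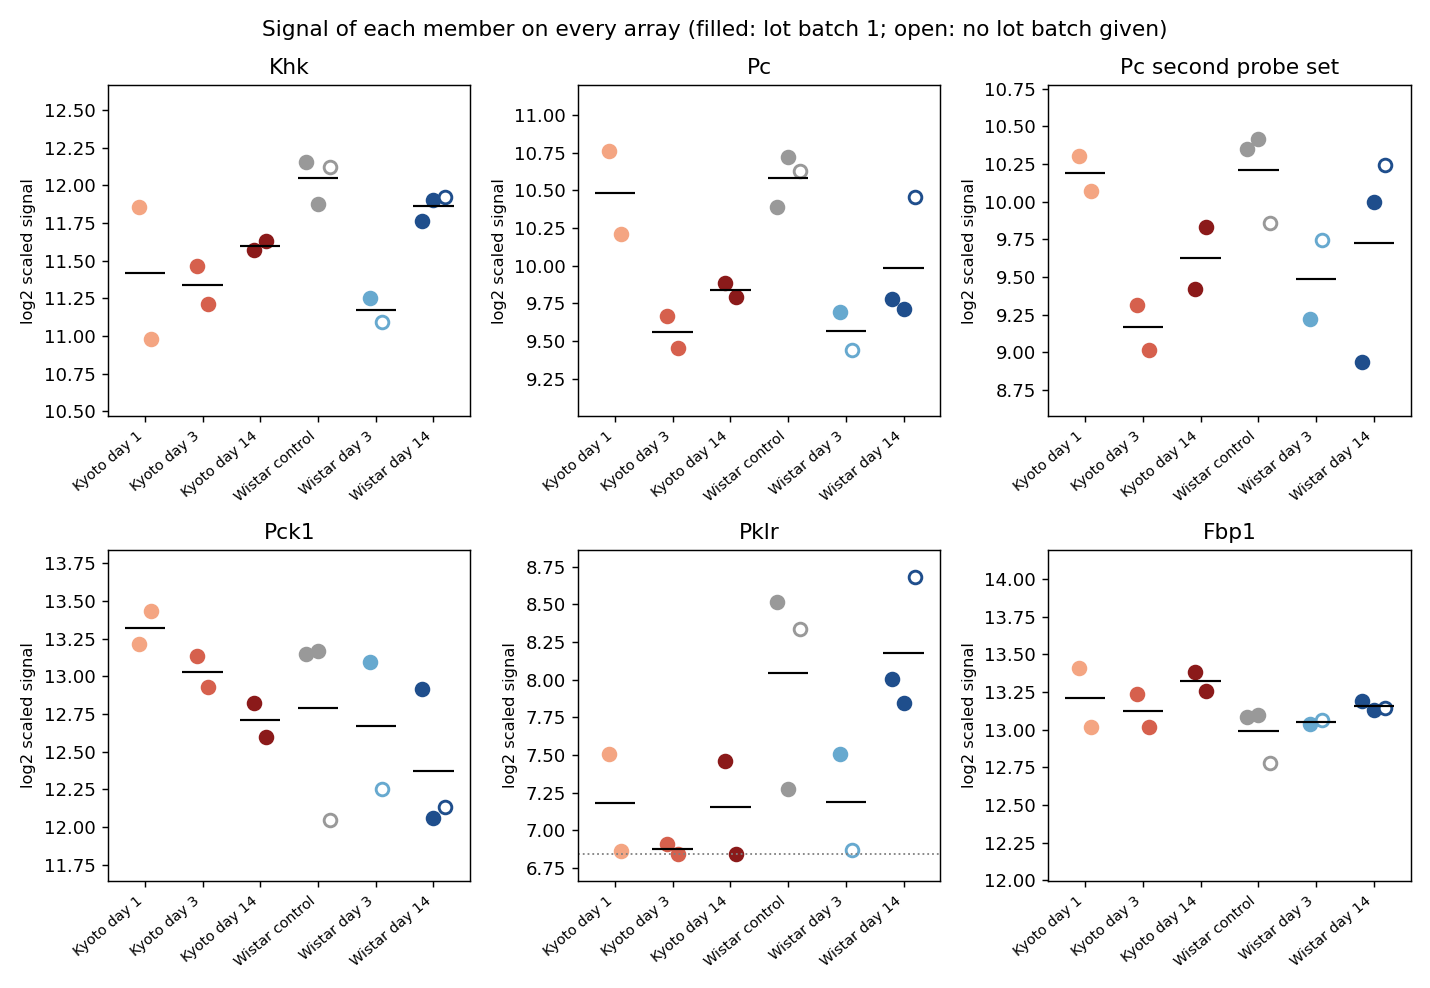
Log2 scaled signal (y axis) of each probe set on every array, by strain and day (x axis), with 1 point per array, black bars for group means, open points for arrays with no lot batch given, and a dotted line at the floor in the Pklr panel. Every panel spans the same number of log2 units. Khk and Pc lie lower at Wistar day 3 than in the Wistar controls, the open Pck1 points lie between 12.05 and 12.25, and all Fbp1 points lie between 12.78 and 13.41.

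Khk, the enzyme that phosphorylates fructose, had log2 signals of 11.85 and 10.98 in Kyoto livers at day 1, 11.47 and 11.21 at day 3, and 11.57 and 11.63 at day 14. In Wistar livers it had 12.15, 11.88 and 12.12 in controls, 11.25 and 11.10 at day 3, and 11.76, 11.91 and 11.92 at day 14. Both day 3 Wistar arrays lay below every control and every day 14 Wistar array, and the Kyoto arrays spanned 10.98 to 11.85. At day 3 Khk averaged 11.17 ± 0.11 in fed Wistar livers (SD, n = 2), against 12.05 ± 0.15 in Wistar controls (SD, n = 3). The difference was -0.88 ± 0.24 (SE), a signal 0.545 times that of controls, with a 95% interval of -1.40 to -0.35. In limma it had an unadjusted p of 0.00299, the rank of 22 among all features, and an adjusted p of 0.244. At an unadjusted p under 0.05, 10.5% of all features differed there.

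The Khk difference at day 3 was of like size without 1 control and within each lot batch. Without the array labelled Wistar control 2 it was -0.95 (adjusted p = 0.316). Within lot batch 1 it was -0.76, over 1 array at day 3 and 2 controls, and among the arrays with no lot batch it was -1.03, over 1 array each. At day 14 Khk in Wistar livers was 0.69 ± 0.24 above day 3 (adjusted p = 0.993 in limma) without overlap, and 0.19 ± 0.22 below control (difference -0.19, adjusted p = 0.991) with overlap. The 3 comparisons share groups. At day 14 against day 3, 4.45% of features had an unadjusted p under 0.05. Groups did not overlap in the same direction for 19.6% of features at day 3 against control and for 11.6% at day 14 against day 3. In Kyoto livers Khk at day 3 minus day 1 was -0.08 ± 0.27 and became 0.36 without Kyoto day 1 replicate 1 (adjusted p = 0.764) and -0.52 without replicate 2.

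Summed signals of 2 marker lists were higher in the Wistar livers at day 3, but their genes differed in direction. The 7 of 8 pericentral hepatocyte markers with a row summed to 48326 to 52398 at day 3, against 38905 to 45212 in controls, with Slc1a2 at the floor on every array. Of these 7, 3 had higher and 3 lower means, with Cyp2e1 and Oat above every control and Cyp7a1 below every control. The 8 of 11 stellate cell and fibroblast markers with a row summed to 9676 to 10453 at day 3, against 5804 to 9321 in controls. Of these 8, 3 had higher and 5 lower means, with Sparc above every control and Col1a2 and Bgn below. The part of either in the Khk and Pc differences was not tested, and in whole liver RNA fewer cells of a type and less RNA per cell cannot be told apart.

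Of the fructose and polyol genes listed, 5 of 10 were tested and 0 passed in any comparison by limma. At Wistar day 3 against control, 1 (Khk) had an unadjusted p under 0.05, against 10.5% of all features. Lower means were seen for 4 of the 5 (median difference -0.24, against -0.04 over all features). Tkfc, the triokinase that acts on the glyceraldehyde made from fructose, had -0.56 ± 0.38 there (adjusted p = 0.643), and Akr1b1, the aldose reductase that starts fructose formation from glucose, had -0.24 ± 0.26 (adjusted p = 0.811). At day 14 Tkfc had log2 signals of 9.97 to 10.04 over 3 arrays in Wistar livers, against 9.21 and 8.62 at day 3. The day 14 arrays all lay above, by 1.09 ± 0.38 (adjusted p = 0.993 in limma). Groups did not overlap in that direction for 11.6% of all features.

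**Figure D2:**
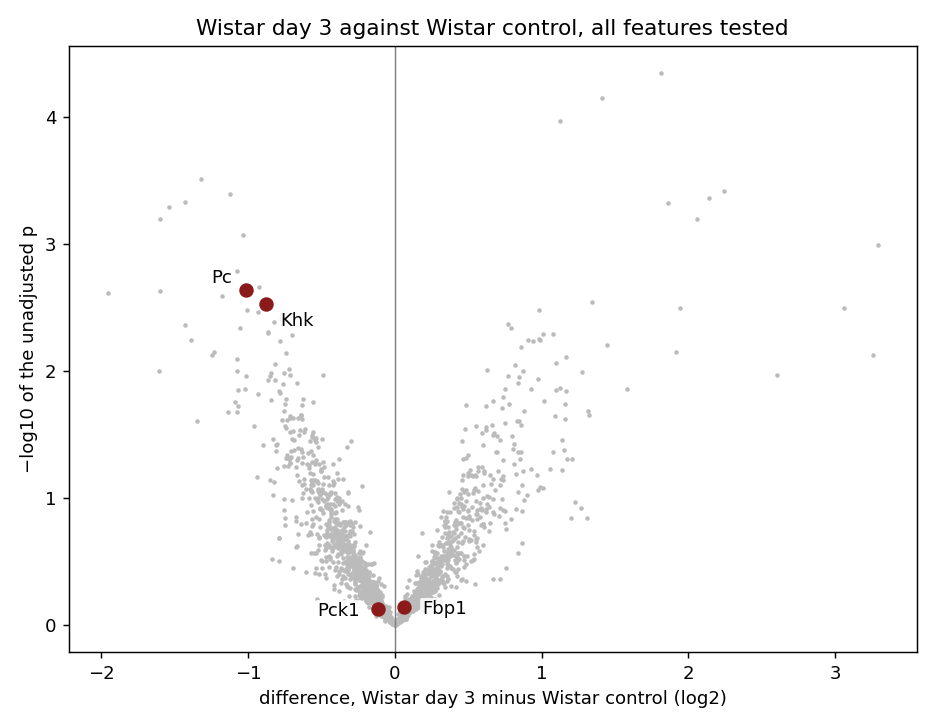
Difference of each feature between Wistar day 3 and Wistar control in log2 units (x axis) against the −log10 of its unadjusted p (y axis), with 1 grey point per feature and the 4 genes tested in red. Khk (-0.88) and Pc (-1.01) lie toward the upper left of the cloud, and Pck1 and Fbp1 near the bottom, close to no difference.

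Pklr, which makes pyruvate in the last step of glycolysis, was dim. It had log2 signals of 7.50 and 6.87 in Kyoto livers at day 1, 6.91 and 6.85 at day 3, and 7.46 and 6.85 at day 14, where 6.85 is the floor. In Wistar livers it had 8.51, 7.28 and 8.34 in controls, 7.51 and 6.87 at day 3, and 8.01, 7.85 and 8.68 at day 14. The control at 7.28 is the array labelled Wistar control 2. It and the Wistar day 3 array at 6.87 lay within the Kyoto range of 6.85 to 7.50. Because Pklr missed the filter, its p-values come from the limma fit of all 3181 features without that filter. Day 14 minus day 3 in Wistar livers was 0.99 ± 0.42, without overlap (unadjusted p = 0.0442, adjusted p = 1). Of the 1909 features that passed the filter, 11.6% did not overlap there with day 14 higher, and 4.45% had an unadjusted p under 0.05. Day 3 minus control was -0.85 ± 0.42 (adjusted p = 0.611), -0.54 without Wistar day 3 replicate 2 and -1.24 without the array labelled Wistar control 2. Within lot batch 1 it was -0.39, and among the arrays without one -1.47. The day 14 level was 0.14 above control with that array and 0.25 below without it (difference -0.25). Over days 3 and 14 Pklr differed between Kyoto and Wistar by -0.67 ± 0.31 (adjusted p = 0.465), with overlap, and within lot batch 1 by -0.70.

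Of 26 glycolysis genes listed, 8 were tested in the filtered limma fit and 0 passed in any comparison. At Wistar day 3 against control the 8 had a median difference of -0.14, with 3 higher and 5 lower means. Of the 8, 1 (Pfkfb1) had an unadjusted p under 0.05, against 10.5% of all features. Pfkfb1, a liver enzyme that sets the level of an activator of glycolysis, had -0.66 ± 0.30 (adjusted p = 0.475), which was -0.25 without Wistar day 3 replicate 2 and -1.06 without replicate 1. Pgam1 (phosphoglycerate mutase) had 0.37 ± 0.20 (adjusted p = 0.554) and Aldoa (aldolase A) 0.32 ± 0.41 (adjusted p = 0.844). In Kyoto livers at day 3 against day 1, 7 of the 8 had lower means (median -0.23, against 0.02 over all features). Of the 8, 1 (Aldoa) had an unadjusted p under 0.05, against 5.81% of all features. Aldoa had -1.13 ± 0.45 (adjusted p = 0.783), which was -0.56 without Kyoto day 1 replicate 1 and -1.72 without replicate 2.

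Pc, which opens gluconeogenesis and also refills the citric acid cycle, had log2 signals of 10.76 and 10.21 in Kyoto livers at day 1, 9.66 and 9.45 at day 3, and 9.88 and 9.80 at day 14. In Wistar livers it had 10.39, 10.72 and 10.63 in controls, 9.70 and 9.44 at day 3, and 9.78, 9.71 and 10.46 at day 14. Both strains thus had their lowest Pc means at day 3, 9.56 ± 0.15 in Kyoto livers and 9.57 ± 0.18 in Wistar livers (SD, n = 2 each). Their comparison levels were 10.48 ± 0.39 at day 1 in Kyoto livers (SD, n = 2) and 10.58 ± 0.17 in Wistar controls (SD, n = 3). The earlier groups did not overlap with day 3 in either strain. With day 3 lower, that held for 19.6% of all features in Wistar livers and for 12.6% in Kyoto livers.

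The Wistar day 3 difference from control was -1.01 ± 0.27, a signal 0.496 times that of controls, with a 95% interval of -1.59 to -0.43. In limma its unadjusted p was 0.0023, rank 17 of all features, and its adjusted p was 0.243. Within lot batch 1 it was -0.86 and among arrays without a lot batch -1.19; without the array labelled Wistar control 2 it was -0.93 (adjusted p = 0.521). In Kyoto livers day 3 minus day 1 was -0.93 ± 0.30 (unadjusted p = 0.00771, rank 11, adjusted p = 0.783), and -0.65 without Kyoto day 1 replicate 1. In that Kyoto comparison 5.81% of features had an unadjusted p under 0.05, and groups did not overlap, with day 3 lower, for 12.6% of features. Stellate cell and fibroblast markers summed to 6905 to 9258 in Kyoto livers at day 3, against 11734 to 13240 at day 1. Of their 8 means 6 were lower, with Col1a1, Sparc and Igfbp3 without overlap. Sums of 3 other lists were higher at day 3 without overlap. They were 7897 to 8817 against 6949 to 7728 for Kupffer cells and macrophages (6 means higher, 1 lower). Hepatocyte markers had 144225 to 145877 against 137094 to 143567 (5 higher, 3 lower). Periportal markers had 59393 to 64995 against 56763 to 59253 (6 higher, 2 lower). The part of any of these lists in the Pc difference was not tested.

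At day 14 the mean of Pc was between its day 3 and earlier means. In Wistar livers day 14 minus day 3 was 0.41 ± 0.27, and 0.18 without day 14 replicate 3. Within lot batch 1 that step was 0.05, and among the arrays without a lot batch 1.02, over 1 array each. The difference from control in Wistar livers was -0.60 ± 0.24 (unadjusted p = 0.0273, adjusted p = 0.893), and day 14 replicate 3, at 10.46, overlapped the controls. At an unadjusted p under 0.05, 5.19% of features differed there. In Kyoto livers day 14 minus day 1 was -0.65 ± 0.30 (unadjusted p = 0.0478, adjusted p = 0.482), and -0.37 without Kyoto day 1 replicate 1 and -0.92 without replicate 2, a comparison in which 10.1% of features had an unadjusted p under 0.05. The second Pc probe set had a Pearson correlation with the first of 0.755 over the 14 arrays and of 0.355 within groups. It had -0.72 ± 0.36 at Wistar day 3 and -0.48 ± 0.32 at Wistar day 14, both against control. Against Kyoto day 1 it had -1.02 ± 0.39 at day 3 and -0.56 ± 0.39 at day 14. In that order the unadjusted p were 0.0628, 0.154, 0.0207 and 0.171 in limma with every probe set tested (adjusted p = 0.513, 0.994, 0.771 and 0.649). The day 3 difference of the second probe set in Wistar livers was -1.16 within lot batch 1 and -0.11 among the arrays without one. At Wistar day 14 against control it was -0.92 and 0.39, where the first probe set had -0.81 and -0.17.

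Pck1, which commits oxaloacetate to glucose formation, had log2 signals of 13.21 and 13.43 in Kyoto livers at day 1, 13.13 and 12.93 at day 3, and 12.82 and 12.59 at day 14. The Kyoto days followed each other downward without overlap, but day 14 minus day 1 was -0.61 ± 0.38 (adjusted p = 0.606 in limma). Groups did not overlap, with day 14 lower, for 19.1% of all features in that comparison and for 23% at day 14 against day 3. At day 3 against day 1 the share with day 3 lower was 12.6%. In Wistar livers Pck1 had 13.15, 13.17 and 12.05 in controls, 13.09 and 12.25 at day 3, and 12.92, 12.06 and 12.13 at day 14. Each Wistar group thus held arrays at 12.92 to 13.17 and arrays at 12.05 to 12.25. The 3 arrays without a lot batch were all among the low ones, at 12.05 to 12.25, and the 5 Wistar arrays of lot batch 1 spanned 12.06 to 13.17.

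Neither Wistar feeding day passed the threshold against control for Pck1: day 3 minus control was -0.12 ± 0.35 (95% interval -0.87 to 0.64), and 0.01 with the lot batch as a block, and day 14 minus control was -0.42 ± 0.31 (95% interval -1.09 to 0.25). The day 14 difference was -0.79 without the third control and -0.23 without the array labelled Wistar control 2, and it was -0.67 within lot batch 1 and 0.08 among the arrays without one. The Kyoto minus Wistar difference over days 3 and 14 was 0.35 ± 0.26 (adjusted p = 0.611), 0.03 ± 0.21 with the lot batch as a block, and 0.08 within lot batch 1. It was 0.14 without Wistar day 3 replicate 2 and 0.56 without replicate 1. Each Wistar group held 1 array without a lot batch.

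Fbp1, which removes a phosphate from fructose bisphosphate on the way to glucose, was the steadiest of the 5. Its log2 signals were 13.41 and 13.02 in Kyoto livers at day 1, 13.24 and 13.02 at day 3, and 13.38 and 13.26 at day 14. In Wistar livers they were 13.09, 13.09 and 12.78 in controls, 13.03 and 13.06 at day 3, and 13.19, 13.13 and 13.14 at day 14. Its SD over the 14 arrays was 0.16, against 0.38 for Khk, 0.47 for Pc, 0.48 for Pck1 and 0.65 for Pklr. Day 3 minus control in Wistar livers was 0.06 ± 0.17 (95% interval -0.30 to 0.42), and the Kyoto minus Wistar difference was 0.12 ± 0.12 (95% interval -0.15 to 0.39). Both intervals lie well within 1 log2 unit of 0. With the signals as the authors scaled them the first of these differences turned to -0.26 (adjusted p = 0.663).

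Of 18 gluconeogenesis and shuttle genes listed, 12 were tested, Pc, Pck1 and Fbp1 among them, and 0 passed in any comparison by limma; the glucose phosphatase gene G6pc1 had no row used here. At Wistar day 3 against control 8 of the 12 had higher means (median 0.24, against -0.04 over all features). Of the 12, 2 had an unadjusted p under 0.05, Pc lower and Gpt higher, against 10.5% of all features. Sds (serine dehydratase, which makes pyruvate from serine) had 0.75 ± 0.46 and Gpt (alanine aminotransferase) had 0.69 ± 0.31, with adjusted p of 0.601 and 0.459 in limma. In Kyoto livers at day 3 against day 1, 8 of the 12 had lower means (median -0.27). Pc and Mdh2 had an unadjusted p under 0.05, as did 5.81% of all features. Mdh2, the mitochondrial malate dehydrogenase that follows Pc in the malate shuttle, had -0.88 ± 0.32 there, after Pc at -0.93, with an adjusted p of 0.783 that was 0.0309 without Kyoto day 1 replicate 2 (difference -1.38), while the difference was -0.39 without Kyoto day 1 replicate 1. At Kyoto day 14 against day 1 Sds had 1.52 ± 0.51 and Gpt 0.94 ± 0.34 (adjusted p = 0.322 and 0.375). There 4 of the 12 had an unadjusted p under 0.05 (2 higher, 2 lower), against 10.1% of all features.

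The pyruvate dehydrogenase complex competes with Pc for pyruvate. The list named for it also held its kinases and phosphatases and the mitochondrial pyruvate carrier. Of these 11 genes, 5 were tested and 0 passed the threshold in any comparison by limma. The 5 were Pdha1, Pdhb and Dlat of the complex, the kinase Pdk2 and the carrier gene Mpc1. At Wistar day 3 against control Dlat, the acetyltransferase subunit of the complex, had -0.50 ± 0.25 (adjusted p = 0.506 in limma). Pdha1, a subunit of its first enzyme, had 0.47 ± 0.28 (adjusted p = 0.595 in limma). There 0 of the 5 had an unadjusted p under 0.05, against 10.5% of all features. In Kyoto livers Pdha1 had log2 signals of 9.54 and 9.86 at day 14, against 8.97 and 8.65 at day 1. The groups did not overlap, as for 19% of all features with day 14 higher, and the difference was 0.88 ± 0.31 (adjusted p = 0.355).

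**Figure D3:**
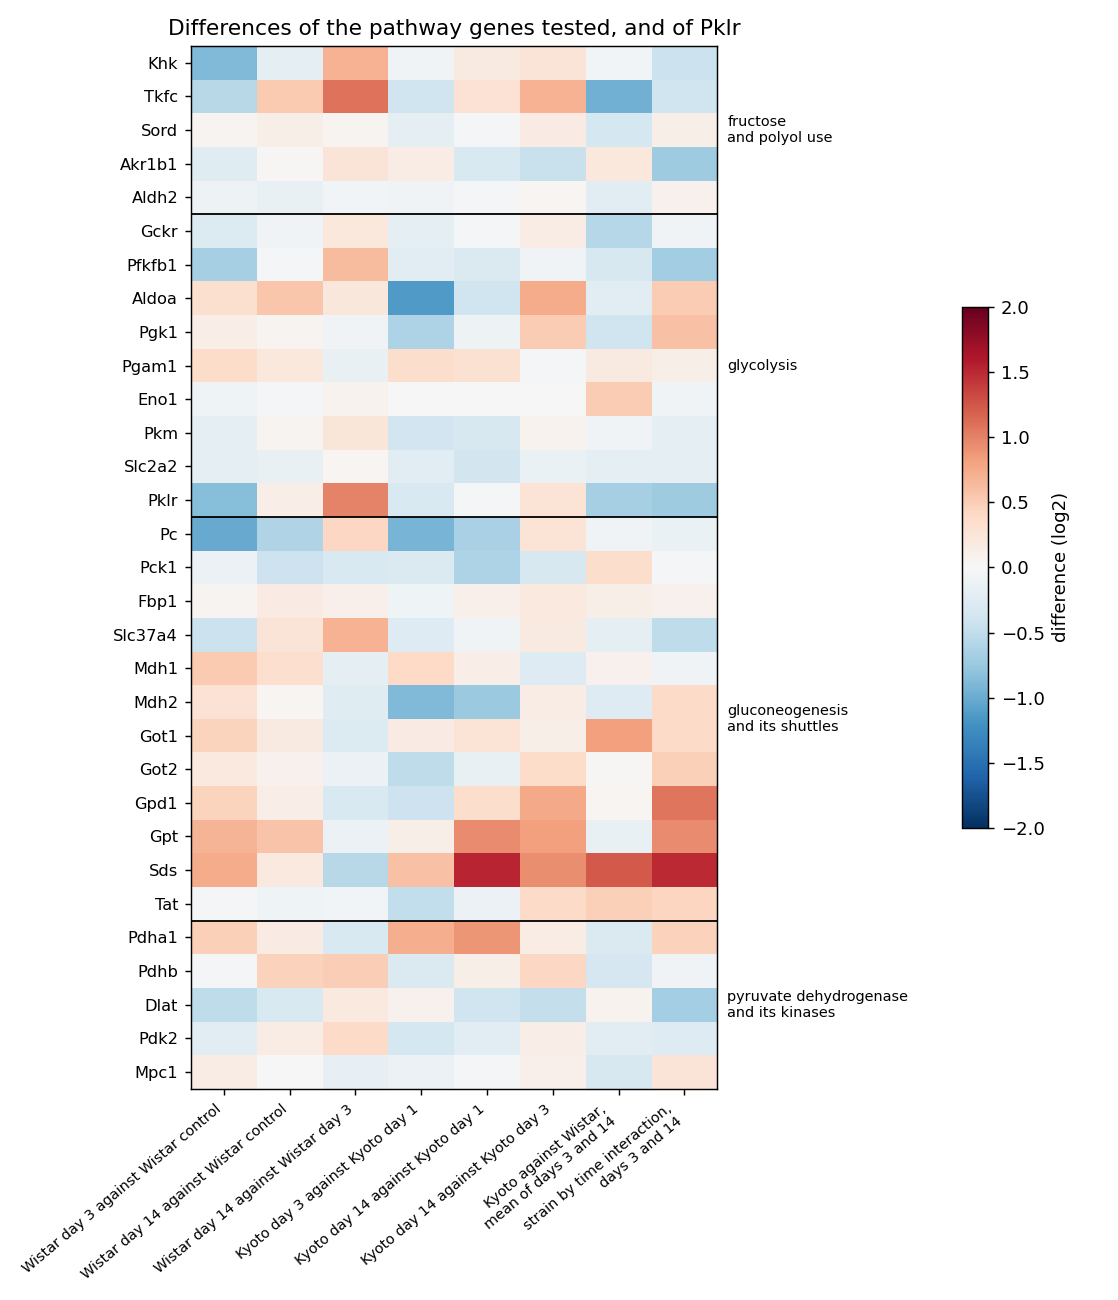
Difference in log2 units (colour, red higher and blue lower in the first group named) of each pathway gene tested, and of Pklr, in the 8 comparisons (columns), with horizontal lines between the gene lists. Khk, Pklr and Pc are blue in the first column, and Sds, Tkfc and Got1 have the strongest colours for Kyoto against Wistar.

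Between the strains at days 3 and 14 of feeding, none of the 4 genes tested had an unadjusted p under 0.05. Khk differed by -0.05 ± 0.18 (95% interval -0.44 to 0.34) and Pc by -0.08 ± 0.20 (95% interval -0.51 to 0.36). Over all features 14.4% did. Of the 26 other pathway genes tested, 0 passed by limma, 5 had an unadjusted p under 0.05 (3 higher, 2 lower), and 10 had higher and 16 lower means in Kyoto livers (median -0.19, against 0.03 over all features). Of the 8 glycolysis genes 2 had higher means (median -0.21), of the 12 gluconeogenesis genes 8 (median 0.07), of the 5 fructose genes 1 (median -0.21), and of the 5 genes tested on the pyruvate dehydrogenase list 1 (median -0.29).

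Got1, the cytosolic aspartate aminotransferase that regains oxaloacetate from aspartate, had log2 signals from 10.71 to 11.54 in Kyoto livers of days 3 and 14, against 10.04 to 10.50 in Wistar livers. The ranges did not overlap, as for 5.08% of all features with Kyoto higher, and the difference was 0.81 ± 0.22 (adjusted p = 0.0626 in limma). Gckr, a regulatory protein of liver glucose use, had 9.49 to 9.79 in Kyoto livers, against 9.998 to 10.51 in Wistar livers, also without overlap (3.77% of all features with Kyoto lower), a difference of -0.57 ± 0.17 (adjusted p = 0.0818). Sds differed by 1.22 ± 0.34 (adjusted p = 0.068) and Tkfc by -0.96 ± 0.28 (adjusted p = 0.0791), both with overlap. Leaving out single arrays moved Tkfc, Got1 and Sds to either side of the threshold. For Tkfc the adjusted p was 0.045 without Kyoto day 1 replicate 1, 0.0458 without Kyoto day 1 replicate 2 and 0.0375 without the array labelled Wistar control 2. For Got1 it was 0.0494 without Kyoto day 3 replicate 2 and 0.0327 without the array labelled Wistar control 2, and for Sds 0.0497 without Kyoto day 3 replicate 2. Over all single arrays left out the adjusted p reached 0.304 for Tkfc, 0.271 for Got1 and 0.278 for Sds, and without Kyoto day 3 replicate 1 the difference was 0.60 for Got1 and 0.90 for Sds.

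The interaction asked whether the step from day 3 to day 14 differed between Kyoto and Wistar livers. No member passed, and 5.13% of features had an unadjusted p under 0.05. The largest were Pklr at -0.72 ± 0.63 and Khk at -0.43 ± 0.36 (95% interval -1.21 to 0.35). Pc had -0.13 ± 0.40 (95% interval -0.997 to 0.732), Pck1 -0.02 ± 0.52 (95% interval -1.14 to 1.10) and Fbp1 0.09 ± 0.25. Within Kyoto livers, day 14 minus day 3 lay between -0.32 for Pck1 and 0.28 for the first Pc probe set (adjusted p = 0.979 each in limma). The second Pc probe set lay outside that range, at 0.46 ± 0.39. In that comparison 4.61% of features had an unadjusted p under 0.05.

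**Figure D4:**
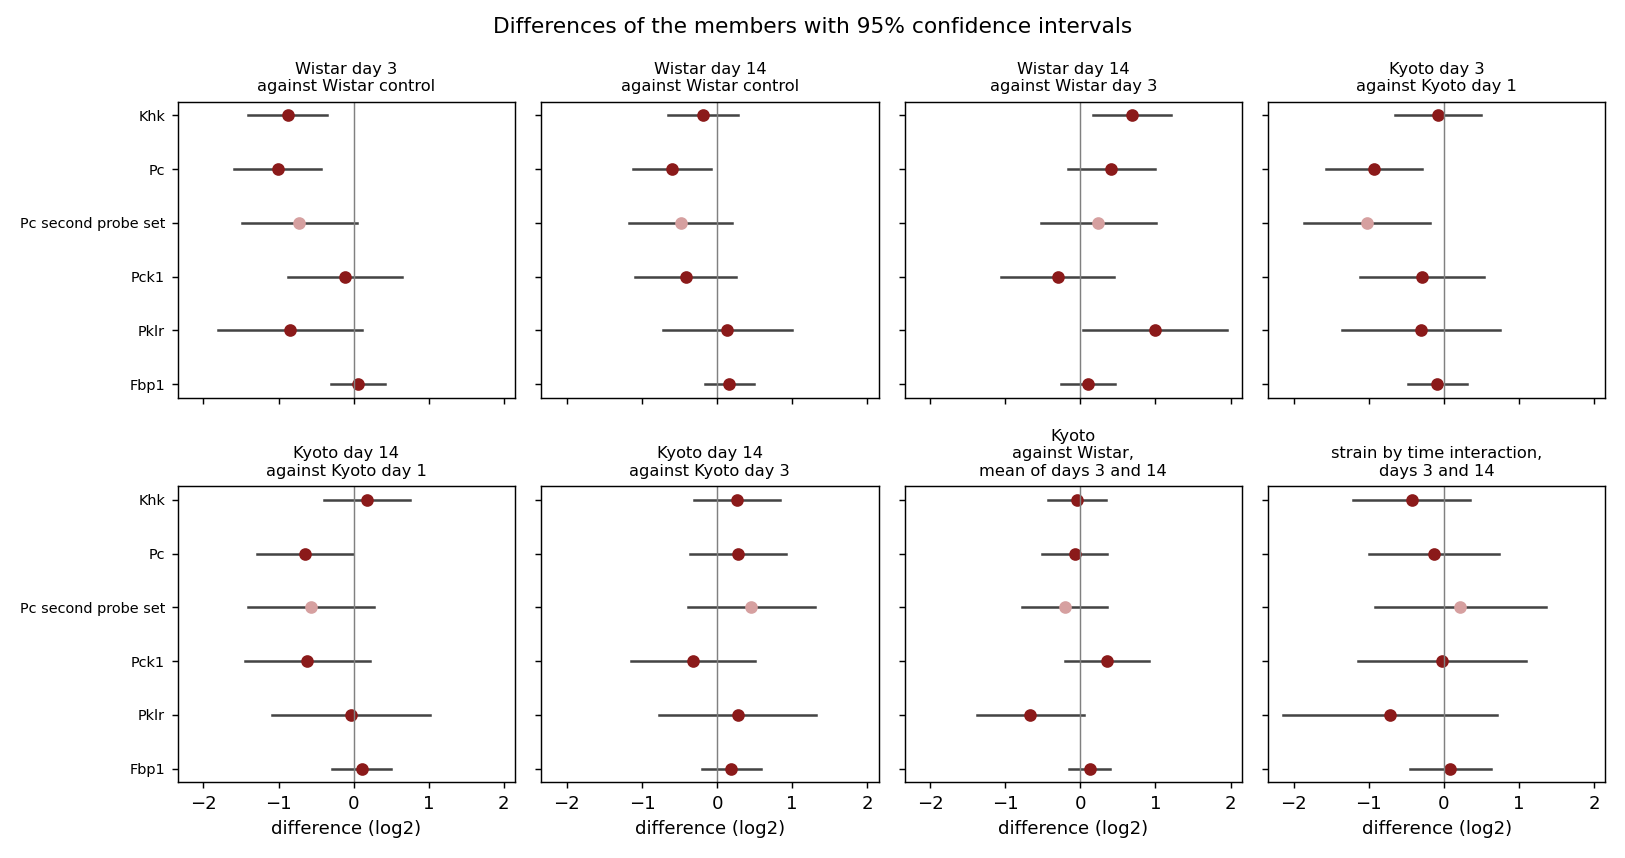
Difference in log2 units (x axis) of each probe set (y axis) in the 8 comparisons (panels), with 95% confidence intervals as lines and the second Pc probe set in pale red. The Khk and first Pc intervals lie below 0 at Wistar day 3 against control, and the first Pc interval also lies below 0 at Wistar day 14 against control and at Kyoto days 3 and 14 against day 1. The interval of the second Pc probe set lies below 0 only at Kyoto day 3 against day 1.

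In the order of group means, Khk was highest in Wistar controls, then Wistar day 14, Kyoto days 14, 1 and 3, and lowest at Wistar day 3; Wistar day 14 and Kyoto day 14 were the only neighbours in that order without overlap. For Pc the order was Wistar control, Kyoto day 1, Wistar day 14, Kyoto day 14, Wistar day 3 and Kyoto day 3, with Kyoto day 14 and Wistar day 3 the only neighbours that did not overlap. That pair overlapped on the second Pc probe set. The share of all features without overlap was not computed for the Khk and Pc pairs. For Pck1 the order was Kyoto day 1, Kyoto day 3, Wistar control, Kyoto day 14, Wistar day 3 and Wistar day 14. The first 2 did not overlap, as for 12.6% of all features with Kyoto day 3 lower. For Pklr it was Wistar day 14, Wistar control, Wistar day 3, Kyoto days 1, 14 and 3, and for Fbp1 Kyoto days 14 and 1, Wistar day 14, Kyoto day 3, Wistar day 3 and Wistar control, with every pair of neighbours overlapping in both.

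Khk and Pklr had alike profiles over the 14 arrays (Pearson r = 0.783), Khk and Pc less so (0.629). These points share the same arrays and scaling, and the groups differ, so the values describe the arrays only. Among 1501 other named features Pck1 was most like Igfbp1 (r = 0.801, Spearman 0.893; 0.725 within groups), the binding protein of insulin-like growth factors, and then Cand1 (0.785) and Cd47 (0.783). Each Wistar group held 1 array without a lot batch, all low for Pck1, so the value within groups still holds that split. Over the 6 Kyoto arrays, all of lot batch 1, the correlation of Pck1 with Igfbp1 was 0.729. Pklr was most like Mif (0.886), Tkfc (0.870; 0.680 within groups) and Pcyt2 (0.865), of which Tkfc belongs to fructose use. Khk was most like Aqp8 (0.790), the glucagon receptor gene Gcgr (0.790; Spearman 0.908) and Man2c1 (0.784). Pc was most like Nfix (0.818), Cyp2d4 (0.776) and Apoa4 (0.770), and Fbp1 most like Ddost (0.825), mrpl11 (0.772) and Akr7a2 (0.756).

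**Figure D5:**
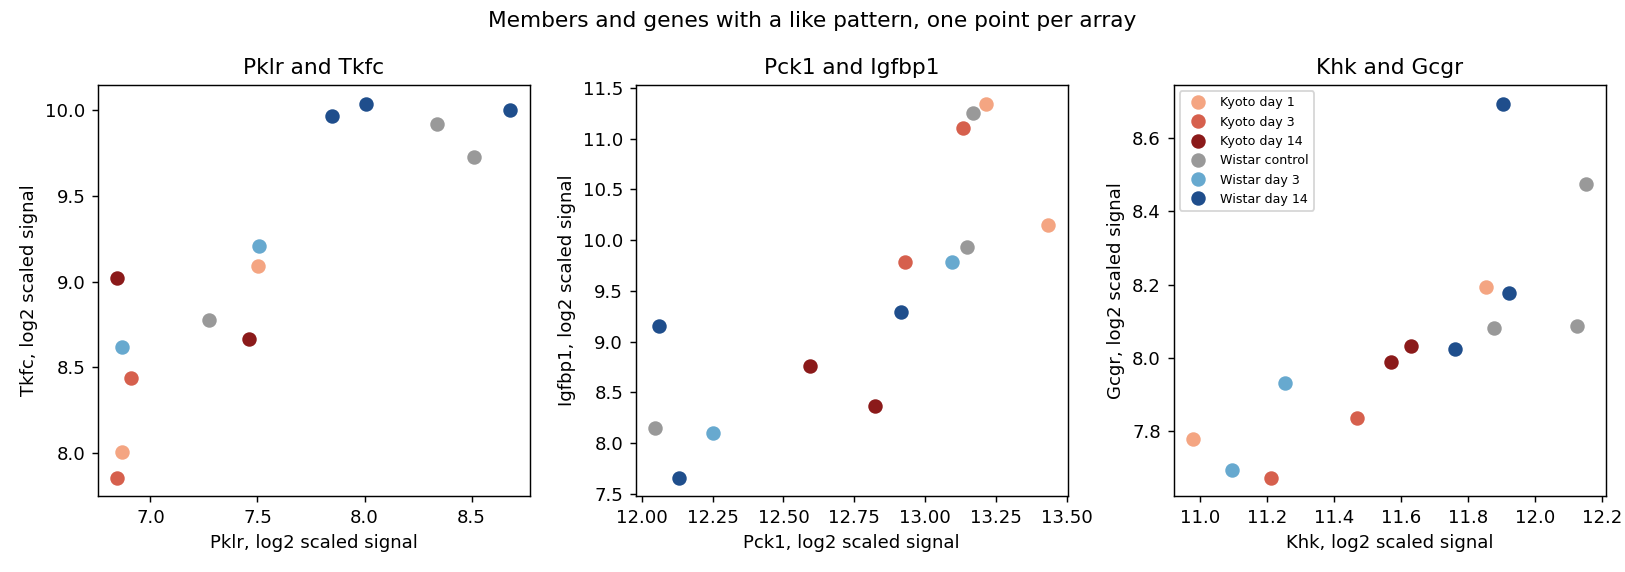
Log2 scaled signals of Pklr and Tkfc, Pck1 and Igfbp1, and Khk and Gcgr, with 1 point per array coloured by group (legend in the third panel). Pklr and Tkfc were both high in 5 of the 6 Wistar control and day 14 arrays, and the 4 arrays with the lowest Pck1 had Igfbp1 at 7.66 to 9.15. Those 4 include the 3 arrays with no lot batch given. The Kyoto day 14 arrays, with higher Pck1, had an Igfbp1 mean of 8.56, within the same range.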

How the data were processed

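Liver RNA of 14 rat samples was measured on 1-colour Affymetrix arrays. The authors deposited a linear intensity for each probe set, and the submitters' processing notes name MAS5 (version not given in the sources used here). Of 4502 rows, 24 were control probe sets and 375 lacked a value on 1 to 3 arrays; both kinds were left out, which left 4110. The 2% trimmed means of the deposited intensities spread by 25.1%, over the 5% limit set for this, so log2 values were quantile normalized. Values under the 25th percentile (115) were set to it. The probe set with the highest mean stood for a gene (3181 features), and the upper 60% by mean were tested (1502 with 1 gene symbol, 407 without). All arrays entered 1 model with a mean for each of 6 groups, which left 8 residual degrees of freedom (limma 3.58.1 in R 4.3.3, lmFit and eBayes with an intensity trend), tested on simulated data. Groups came from the source labels, and replicate numbers only name samples. Genes named were the 5 members, up to 3 of each list by size of difference, and the 3 most alike features per member. The members and lists were chosen with earlier results of these data known. Platform symbols were used as given, since the reference changed 0 of those for 3688 matched probe sets. The number of arrays limits the precision. Alternatives varied scaling, floor, filter, probe set rule, variance model, batches and arrays.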

Additional observations from a re-analysis of the deposited data

How the results depend on the processing

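The 5 genes gave 1064 differences under 13 other settings and with each of 14 arrays left out, each with an adjusted p; Pklr was refitted without the filter, so the 2 filter settings gave no other value for it. Of those, 2 passed the threshold, both with array weights: Khk at Wistar day 3 against control (-0.90, adjusted p = 0.0289) and Pc in the same comparison (-1.02, adjusted p = 0.0371). Direction turned 46 times. No member difference had passed in the main fit, so every turn was necessarily of a difference that had not passed. For Khk, Kyoto day 3 minus day 1 became 0.061 with signals as the authors scaled them, 0.078 with the arrays that had blank rows as a block and 0.36 leaving out both Kyoto day 1 replicate 1 and the array labelled Wistar control 2 (a setting chosen after seeing the data), and Kyoto minus Wistar became 0.0028 with the blank rows block. For Pc, Kyoto minus Wistar became 0.013 with the lot batch block and the interaction 0.012 with the blank rows block. For Pck1, Wistar day 3 minus control became 0.092 with array weights, 0.012 with the lot batch block and 0.073 leaving out both arrays, and the interaction 0.11 with the lot batch block. For Fbp1, Wistar day 3 minus control became -0.26 as deposited and -0.021 on 1 trimmed mean, Kyoto day 3 minus day 1 became 0.033 as deposited and 0.10 leaving out both arrays, and the interaction -0.26 as deposited and -0.037 on 1 trimmed mean. For Pklr, Wistar day 14 minus control became -0.034 with array weights and -0.25 leaving out both arrays, Kyoto day 3 minus day 1 became 0.014 leaving out both arrays, and Kyoto day 14 minus day 1 became 0.27 with the blank rows block and 0.29 leaving out both arrays. Leaving out single arrays gave these ranges where direction turned: for Khk, Kyoto day 3 minus day 1 -0.52 to 0.36, Kyoto day 14 minus day 1 -0.26 to 0.62 and Kyoto minus Wistar -0.11 to 0.012; for Pc, Kyoto minus Wistar -0.14 to 0.043 and the interaction -0.27 to 0.11; for Pck1, Wistar day 3 minus control -0.54 to 0.31, Wistar day 14 minus day 3 -0.72 to 0.12 and the interaction -0.44 to 0.40; for Fbp1, Wistar day 3 minus control -0.042 to 0.11, Kyoto day 3 minus day 1 -0.28 to 0.11, Kyoto day 14 minus day 1 -0.088 to 0.30 and the interaction -0.021 to 0.20; for Pklr, Wistar day 14 minus control -0.25 to 0.37, Kyoto day 3 minus day 1 -0.63 to 0.014, Kyoto day 14 minus day 1 -0.35 to 0.29 and Kyoto day 14 minus day 3 -0.033 to 0.58.

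Counts of features past the threshold moved as follows. At Wistar day 3 against control the count of 0 became 1 on 1 trimmed mean, with every probe set or leaving out both arrays, 19 with array weights and 5 with only the groups compared, and 0 to 6 with single arrays left out (6 without Wistar day 14 replicate 3). At Wistar day 14 against control it was 1 with array weights or leaving out both arrays, and 0 to 7 with single arrays left out (7 without Wistar day 14 replicate 3). At Kyoto day 3 against day 1 it was 2 without the filter and 1 leaving out both arrays, and 0 to 75 with single arrays left out (75 without Kyoto day 1 replicate 2). At Kyoto day 14 against day 1 the count of 1 became 3 without the filter, 4 with every probe set, and 0 with array weights or only the groups compared, and 0 to 161 with single arrays left out (161 without Kyoto day 1 replicate 2). At Kyoto day 14 against day 3 it was 1 without the filter or with array weights, and 0 to 1 with single arrays left out. Between the strains the 62 became 1 without the filter, 39 in the upper 40%, 135 with array weights, 103 with only the groups compared, 21 with the lot batch block and 114 leaving out both arrays, and 11 to 88 with single arrays left out (11 without Kyoto day 14 replicate 1). The causes were not tested. All 537 recomputed values of 20 list gene differences kept their direction. Each of the 20 was among the 3 largest of its list in a comparison, with an unadjusted p under 0.05 in the main limma fit. Their steady direction was thus largely set by that choice and is no measure of robustness. No paired analysis was possible because the labels give no replicate numbers.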

Other observations

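Gene groups around the pathway had 0 members past the threshold in any comparison by limma. Of 13 glycogen genes listed, 4 were tested, and 3 had lower means in Kyoto than in Wistar livers over days 3 and 14 (median difference -0.44, against 0.03 over all features). An unadjusted p under 0.05 was reached there by 2 of the 4, against 14.4% of all features. Pygl, the liver glycogen phosphorylase, had -0.54 ± 0.24 there (adjusted p = 0.297), which was -0.90 without Kyoto day 3 replicate 1 (adjusted p = 0.0371) and -0.19 without Kyoto day 3 replicate 2 (adjusted p = 0.74), and Pgm1, the phosphoglucomutase that links glycogen to glycolysis, had -0.51 ± 0.20 (adjusted p = 0.223). Gaa, the lysosomal glycogen hydrolase, had -0.94 ± 0.37 at Kyoto day 3 against day 1 (adjusted p = 0.783), which was -1.57 without Kyoto day 3 replicate 1 and -0.30 without replicate 2. Of 10 pentose phosphate and NADPH genes listed, 4 were tested, and at Wistar day 3 against control 3 had lower means, with Taldo1 (transaldolase) at -0.47 ± 0.28 and Tkt (transketolase) at -0.41 ± 0.23 (adjusted p = 0.59 and 0.572 in limma), and 0 of the 4 had an unadjusted p under 0.05.

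Of 24 regulators of glucose genes listed, 11 were tested. At Kyoto day 14 against day 1, 5 of the 11 had an unadjusted p under 0.05 (2 higher, 3 lower), against 10.1% of all features. Igfbp1, which insulin lowers and fasting raises in rodent liver, had -2.18 ± 0.86 (adjusted p = 0.412). Foxa2, a transcription factor that opens liver enhancers, had 1.49 ± 0.47 (adjusted p = 0.269 in limma), with a day 1 mean of 7.02, near the floor of 6.85. Onecut1 had 1.12 ± 0.50 there (adjusted p = 0.466), but -1.60 ± 0.46 at Wistar day 14 against day 3 (adjusted p = 0.993). Hnf4a, a central transcription factor of hepatocytes, had -1.05 ± 0.41 at Kyoto day 3 against day 1 (adjusted p = 0.783).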
